A study of Drosophila melanogaster with 12 samples.

Results

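Small RNAs of *Drosophila melanogaster* testes that carried an added Y chromosome named Ycongo were compared with those of testes that carried an added Y chromosome named Yohio. The genotypes are written XYYcongo and XYYohio, and each had 2 libraries, so that 4 of the 12 libraries of the series entered the comparison. The libraries were chosen by their genotype and tissue labels. All 839 entries of the testis table other than the 6 spike-ins were followed, with class names as deposited: TE for transposons and other repeats, Suste, satellite, telomeric, rDNA, tRNA, snoRNA, mitochondrial and mitochondrial tRNA. Both genotypes held the X and Y of the XY control together with 1 added Y, so they differed in the origin of the added Y and not in the number of Y chromosomes. The XY control, with no added Y and also 2 libraries, entered the statistical model and is given beside the pair. The labels write a caret between the X and the first Y of all 3 male genotypes without explaining it. Flies were 2 days old and had been kept at 23 °C on molasses medium under 14 hours of light a day. The deposited table heads the XYYohio columns Cs, which the labels do not explain, and they were read as XYYohio because the XYYcongo and XY columns are named outright. The number of animals in a library and the number of lines behind each Y are not given in the labels or files used here.

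The Y chromosome of *Drosophila* is almost wholly heterochromatic and consists of satellite blocks, transposon remnants, an array of rRNA genes, the Su(Ste) repeats and a few genes that males need for fertility. The Su(Ste) repeats, listed as Suste, give rise to piRNAs, which are small RNAs bound by Piwi proteins, and these silence the X-linked Stellate genes in the male germline. Other piRNAs are antisense to transposons and repress them. Small RNA libraries also hold fragments of tRNA, rRNA and snoRNA, which can be processed products or products of breakdown.

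Non-spike reads numbered 714771 and 672218 in the XYYcongo libraries 1 and 2, 686497 and 1164314 in XYYohio, and 589490 and 1310076 in XY. Values are those of the deposited table, in which 1 read was worth between 0.403 and 1 unit depending on the library. The library numbers marked a technical difference: Spike_1 gave 87.1% of the spike-in reads in XYYcongo library 1, 84.3% in XYYohio library 1 and 62.1% in XY library 1, but 0.814% in XYYcongo library 2, 0.632% in XYYohio library 2 and 0.106% in XY library 2. Libraries of 1 number deviated from their genotype means together, and values are therefore given in the order library 1, library 2. Suste entries, which mark the male germline, held between 7.42% and 15.7% of non-spike values in all 6 libraries. The table lists no miRNA, so markers of muscle sheath or neurons were not analysed here. In whole testes, fewer cells of a type and less RNA per cell cannot be told apart.

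No small RNA passed the test between the added Y chromosomes. Of 618 features with a mean value of at least 5 over the 6 libraries, limma called 0 (0%) at a Benjamini-Hochberg adjusted p under 0.05, and 8 (1.29%) had an unadjusted p under 0.05. edgeR's quasi-likelihood test and DESeq2, run on recovered reads, also called 0, with 31 and 17 features at an unadjusted p under 0.05. The smallest adjusted p from limma was 0.172. The median absolute log2 difference was 0.369 between the XYYcongo and XYYohio means, 0.55 between the 2 XYYcongo libraries and 0.741 between the 2 XYYohio libraries. Averaging alone tends to make a difference of means smaller than one between single libraries, so these values are not ranked. The median standard error of a log2 fold change was 0.669 (range 0.522 to 0.806). The 95% interval of a median feature therefore reached 1.31 log2 units, or 2.48-fold, to either side as deposited. The reach depends on the scaling, from 2.03-fold with TMM to 26.9-fold with spike-in totals. A smaller difference would not give even an unadjusted p under 0.05 for such a feature. The interval is not adjusted for the number of features, and differences beyond its reach also failed the adjusted test. GYPSY_I Minus, at 4.5-fold as deposited, was not called (adjusted p = 0.334 from limma).

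Values of both XYYcongo libraries stood above both XYYohio libraries in 85 features (13.8%) and below both in 48 (7.77%). Identical gene copies share their values, and over 446 distinct profiles these counts were 65 (14.6%) and 25 (5.61%). The split depends on how the libraries are scaled: over 7 scalings, between 1 and 72 profiles stood higher in XYYcongo and between 4 and 92 lower. Spike-in reads numbered 2299861 and 216527 in XYYcongo libraries 1 and 2, and 1972813 and 248355 in XYYohio. Spike-in scaling therefore sets the 2 libraries of a genotype far apart, and overlap between genotypes is nearly fixed in advance. Each range over the 7 scalings, here and below, includes that scaling, so its low end does not by itself show that a separation is fragile. The median log2 fold change of all features ran from −0.10 with spike-in scaling to 0.26 with non-spike totals, and was 0.23 as deposited and −0.08 with TMM. A log2 fold change is therefore given below only for a feature that moved further than the 0.364 between these medians, and other features are described by their levels. Because 1 was added to each value before taking log2, the changes of low features are understated, and ± after a log2 fold change is its standard error.

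**Figure D1:**
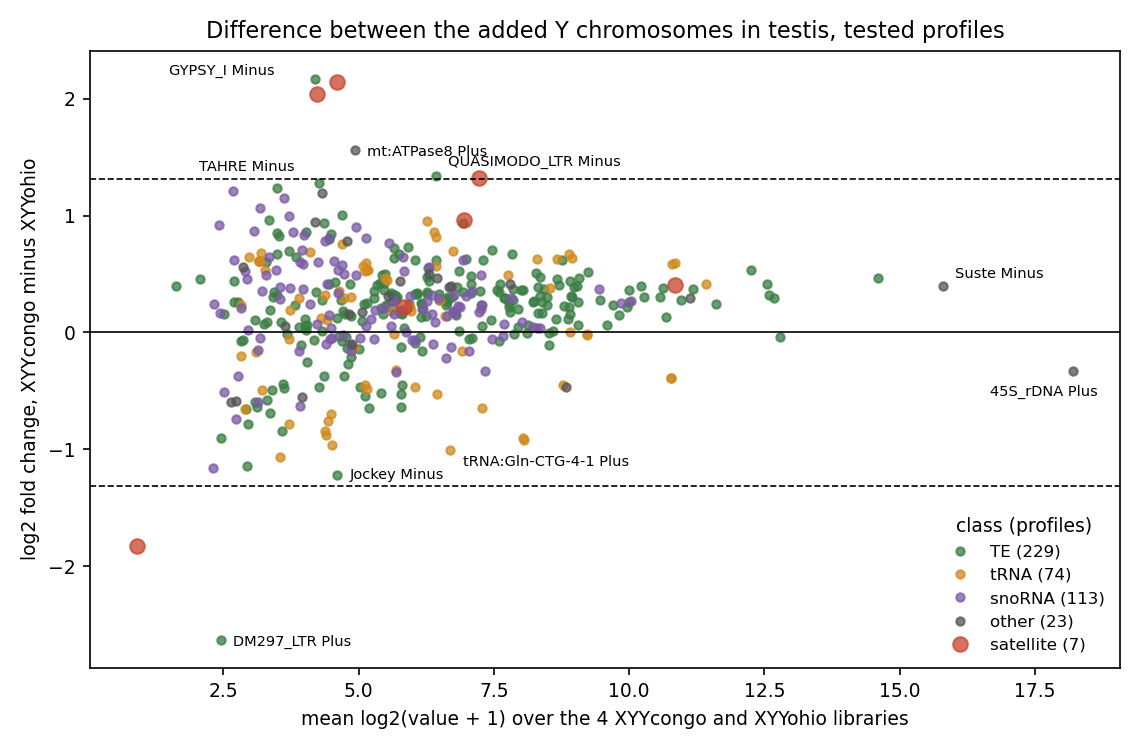
Log2 fold change of XYYcongo minus XYYohio (vertical) against the mean log2 level over the 4 libraries (horizontal) for the 446 distinct tested profiles, coloured by class. The dashed lines mark 1.31 log2 units above and below 0, the median reach of the 95% interval, and only a few low to middling features, among them DM297_LTR Plus, GYPSY_I Minus and 4 satellite entries, lie beyond them.

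Fragments of the rDNA unit, TE small RNAs, tRNA fragments and Suste small RNAs made up most of the values in every library. The TE share was 16.5% and 23.6% in XYYcongo (20.01% ± 5.02, SD, n = 2), 20.3% and 11.7% in XYYohio (15.98% ± 6.13, SD, n = 2), and 12.7% and 24.5% in XY. The tRNA share was 12.8% and 21.4% in XYYcongo, 17.1% and 13.1% in XYYohio, and 10.6% and 18.8% in XY. Suste held 8.69% and 15.7% in XYYcongo, 10.2% and 7.42% in XYYohio, and 7.66% and 15.6% in XY. In each of these classes the 2 XYYcongo libraries lay on both sides of at least 1 XYYohio library.

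The rDNA share was 59.2% and 36.6% in XYYcongo, 49.3% and 66.2% in XYYohio, and 66.7% and 38.8% in XY, and it was low where the other large classes were high. With rDNA left out of the total, the TE shares drew together, at 40.3% and 37.1% in XYYcongo, 40.1% and 34.5% in XYYohio, and 38.1% and 40.0% in XY. The Suste shares did so too, at 21.3% and 24.8% in XYYcongo, 20.1% and 21.9% in XYYohio, and 23.0% and 25.4% in XY. Mitochondrial entries were the only class of the 9 in which the genotypes did not overlap, at 0.141% and 0.121% in XYYcongo and 0.114% and 0.0713% in XYYohio, and with rDNA left out of the total they overlapped as well. The telomeric class then did not overlap, at 0.132% and 0.134% in XYYcongo and 0.144% and 0.136% in XYYohio. The class shares are given as levels with no test, and an exact permutation test of 2 libraries against 2 could not go below a two-sided p of 0.333.

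**Figure D2:**
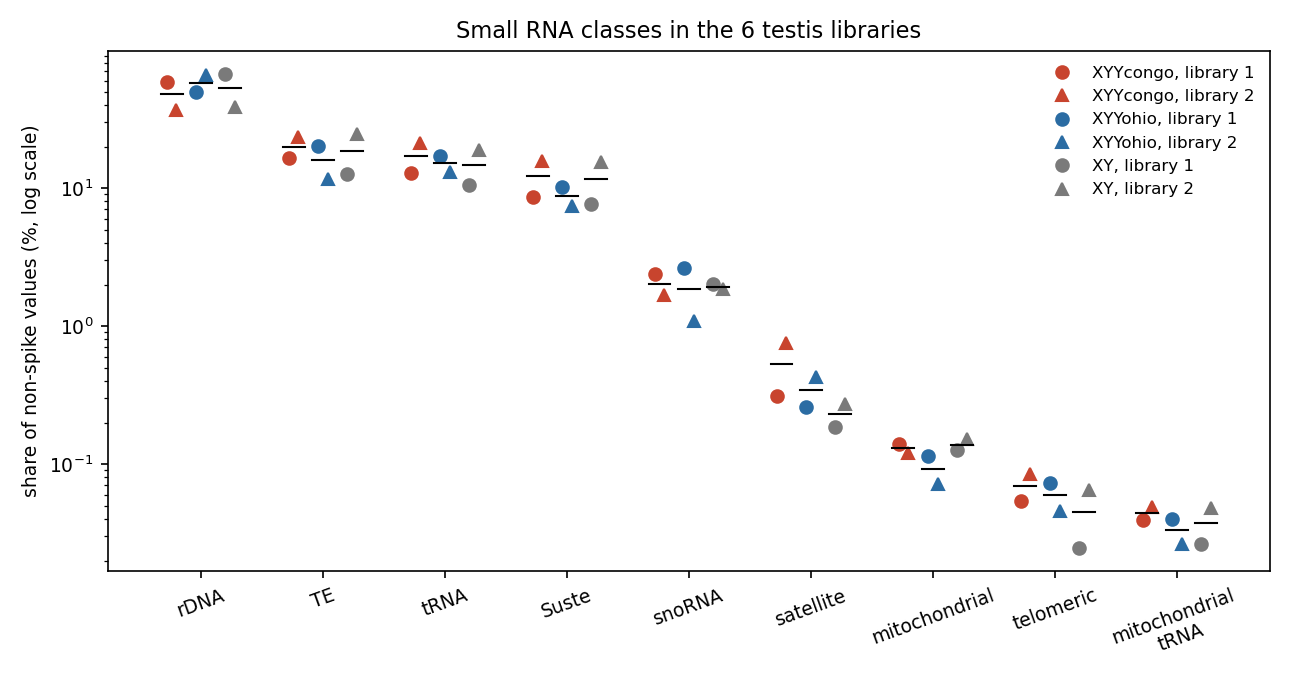
Share of the summed non-spike values (percent, log scale) held by each class in the XYYcongo, XYYohio and XY testis libraries, with circles for library 1, triangles for library 2 and a bar at the mean of each genotype. The rDNA share spans 36.6% to 66.7% over the 6 libraries, and in every class except the mitochondrial one the XYYcongo and XYYohio libraries overlap.

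Small RNAs of the Y-linked Suste repeat, which silence Stellate, were abundant with either added Y. Suste Minus stood at 48800 and 86910 in XYYcongo, 55120 and 44420 in XYYohio, and 43600 and 79770 in XY. Its log2 fold change was 0.40 ± 0.57 (n = 2 per genotype, adjusted p = 0.995 from limma), and without XYYcongo library 2 it was −0.02. Suste Plus stood at 1945 and 3165 in XYYcongo, 2548 and 1611 in XYYohio, and 1561 and 2489 in XY. The genotypes overlapped on both strands. The Minus strand held 96.2% and 96.5% of Suste values in XYYcongo, 95.6% and 96.5% in XYYohio, and 96.5% and 97.0% in XY.

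DMHMR1, a repeat entry of the TE class, was the third most abundant feature after 45S_rDNA Plus and Suste Minus. DMHMR1 Plus stood at 23860 and 35330 in XYYcongo, 27600 and 16020 in XYYohio, and 22860 and 32560 in XY, with a log2 fold change of 0.47 ± 0.60 (adjusted p = 0.995 from limma). The hoppel DNA transposons, listed as PROTOP, PROTOP_A and PROTOP_B, are cut-and-paste elements that are common in heterochromatin. PROTOP_A Plus stood at 5898 and 9012 in XYYcongo, 7407 and 4742 in XYYohio, and 3660 and 9369 in XY. All 6 hoppel entries overlapped between XYYcongo and XYYohio, against 13.8% of all features higher and 7.77% lower without overlap.

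Satellite entries gave 4 of the 8 features with an unadjusted p under 0.05, which is 4 of 7 satellite entries, against 1.29% of all features. Each standard error came from the trend over all features. The p-values and ± of these entries therefore do not measure how far apart their own libraries lay. Simple satellites are short tandem repeats that fill much of the Y chromosome and the centromeric regions. Satellite AAGAG Plus had 62.1 and 40.9 in XYYcongo, 13.2 and 8.53 in XYYohio, and 0 and 25.8 in XY. Both XYYcongo libraries stood above all 4 others, with a log2 fold change over XYYohio of 2.15 ± 0.68 (unadjusted p = 0.00163, adjusted p = 0.337 from limma). It was nearly equal within the library numbers, at 2.16 for library 1 and 2.13 for library 2. The opposite strand carried far more reads: AAGAG Minus had 1209 and 3711 in XYYcongo, 1202 and 2137 in XYYohio, and 1006 and 1203 in XY, and the genotypes overlapped.

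Satellite AAGAC Minus had 26.2 and 52.8 in XYYcongo, 0 and 85.3 in XYYohio, and 0 and 25.4 in XY. Satellite AAGAGAG Minus had 178.2 and 315.7 in XYYcongo, 26.3 and 330.5 in XYYohio, and 23 and 91.5 in XY. For both, library 1 was higher in XYYcongo and library 2 higher in XYYohio. Their log2 fold changes of 2.04 ± 0.69 and 1.32 ± 0.67 (adjusted p = 0.491 and 0.995 from limma) turned to −0.79 and −0.16 with edgeR and to −0.70 and −0.07 with DESeq2. Without XYYohio library 2, which left 1 library in that genotype, they were 5.26 and 3.13. Without XYYohio library 1 they were −1.18 and −0.48.

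Satellite AAGAC Plus had 156.9 and 187.2 in XYYcongo, 153.7 and 49.6 in XYYohio, and 0 and 63.3 in XY. The XYYcongo library 1 and the XYYohio library 1 lay close together, and the log2 fold change was 0.96 ± 0.66 (adjusted p = 0.995 from limma). The dodeca satellite, a repeat of centromeric heterochromatin, was listed at 0 on the Minus strand in both XYYcongo libraries, with 11.5 and 0 in XYYohio and 7 and 13.3 in XY. Satellite AATAGAC Plus had 185.5 and 19.6 in XYYcongo, 55.9 and 49.1 in XYYohio, and 54 and 19.4 in XY. Of the 7 satellite entries, 2 (28.6%) stood higher in XYYcongo without overlap, AAGAG Plus and AAGAC Plus, and 0 stood lower, against 13.8% and 7.77% of all features. Over the 7 scalings 0 to 2 stood higher and 0 lower.

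**Figure D3:**
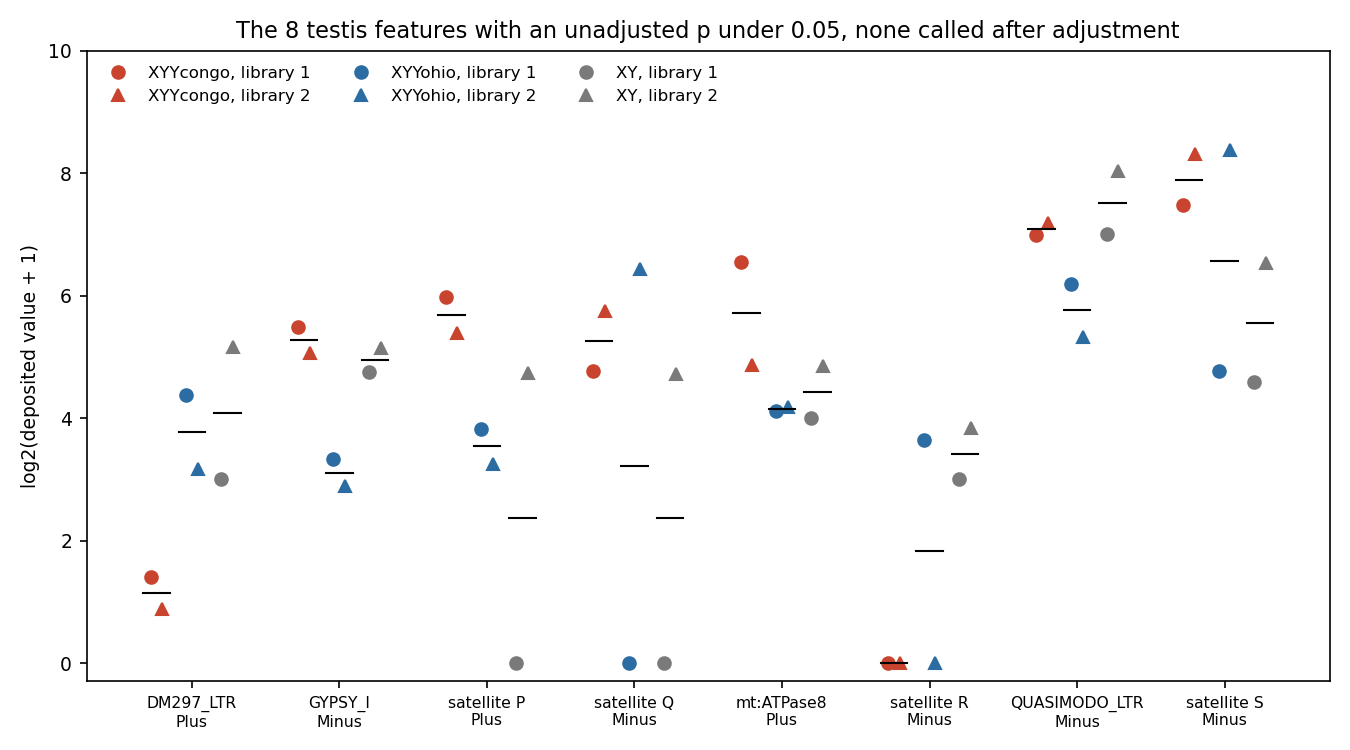
Log2(deposited value + 1) of the 8 features with an unadjusted p under 0.05 in the 2 XYYcongo, 2 XYYohio and 2 XY testis libraries, with circles for library 1, triangles for library 2 and a bar at the mean of each genotype. Satellite P stands for AAGAG, satellite Q for AAGAC, satellite R for the dodeca repeat and satellite S for AAGAGAG. In 5 of the 8 features the XYYcongo and XYYohio libraries do not overlap, and satellites Q, R and S share or cross values between these genotypes.

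Among LTR retrotransposons of the gypsy group, 13 of 88 tested entries (14.8%) stood higher and 5 (5.68%) lower in XYYcongo without overlap, close to the 13.8% and 7.77% of all features. The median log2 fold change of the group was 0.26, against 0.23 over all features, and it was −0.06 with TMM. DM297_LTR Plus, from the long terminal repeat of the element of that name, had the smallest p of all features. It stood at 1.64 and 0.851 in XYYcongo (2 reads and 1 read), 19.7 and 8.00 in XYYohio (24 and 15 reads), and 7 and 34.7 in XY. Both XYYcongo libraries lay below all 4 others, with a log2 fold change of −2.63 ± 0.72 (unadjusted p = 0.000279, adjusted p = 0.172 from limma). The ratio of XYYcongo to XYYohio was 0.0992, with a 95% exact interval of 0.0196 to 0.312 that covers counting error only. DM297_LTR Minus had 43.3 and 43.4 in XYYcongo, 102.8 and 44.8 in XYYohio, and 60 and 149.6 in XY. The internal part of the same element overlapped: DM297_I Plus had 14.7 and 19.6 in XYYcongo, 32.1 and 15.5 in XYYohio, and 17 and 35.1 in XY.

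GYPSY_I Minus, from the internal part of the gypsy element, had the second smallest p. Gypsy is an errantivirus, a retrotransposon that can form infectious particles, and in ovaries its piRNAs come mainly from somatic follicle cells. It stood at 44.1 and 32.3 in XYYcongo, 9.04 and 6.40 in XYYohio, and 26 and 34.3 in XY. The XYYohio libraries were the low ones, and the log2 fold change was 2.17 ± 0.66 (unadjusted p = 0.00108, adjusted p = 0.334 from limma). The 4 errantiviruses named as markers of gonadal somatic cells (GYPSY, ZAM, IDEFIX and GTWIN) have 12 entries, of which 8 were tested. As deposited 2 of the 8, GYPSY_I Minus and GTWIN_LTR Minus, stood higher in XYYcongo without overlap, and 0 stood lower. Over all features these shares were 13.8% and 7.77%. Summed values of the 12 entries were 573 and 731 in XYYcongo, 677 and 374 in XYYohio, and 349 and 691 in XY, which overlapped. No entry of the 12 was at 0 in XYYcongo, while 1 was at 0 in each XYYohio library, and the part of somatic cells in these values was not tested.

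QUASIMODO_LTR Minus, of another gypsy group element, had 126.7 and 145.5 in XYYcongo, 72.3 and 38.9 in XYYohio, and 127 and 262.1 in XY (1.34 ± 0.67, adjusted p = 0.995 from limma). As with gypsy, XYYohio gave the lowest pair. GTWIN_LTR Minus had 32.7 and 39.1 in XYYcongo, 27.9 and 10.7 in XYYohio, and 12 and 40.7 in XY. Relative to XY, DM297_LTR Plus was lower in XYYcongo (−2.94, adjusted p = 0.00384 from limma) and stood at −0.31 in XYYohio (adjusted p = 0.998). In the same fit GYPSY_I Minus stood at 0.33 in XYYcongo against XY and at −1.84 in XYYohio against XY, with adjusted p-values of 0.975 and 0.455 from limma. Both comparisons share the XY libraries, and limma called 1.62% of features in XYYcongo and 0.647% in XYYohio against XY.

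In the other LTR groups, 4 of 28 mdg1 and mdg3 entries, 2 of 20 BEL/Pao entries and 2 of 13 copia entries stood higher in XYYcongo without overlap as deposited. These are 14.3%, 10.0% and 15.4%, near the 13.8% of all features, and each count was 0 in at least 1 of the 7 scalings. Lower ones numbered 0 of the mdg, 0 of the BEL/Pao and 2 of the copia entries, against 7.77% of all features. STALKER2_LTR Minus, of the mdg group, had 14.7 and 17.9 in XYYcongo, 8.22 and 4.80 in XYYohio, and 1 and 13.3 in XY (1.24 ± 0.71). STALKER2_LTR Plus went the other way, with 8.99 and 1.70 in XYYcongo, 18.1 and 5.87 in XYYohio, and 9 and 13.7 in XY (−1.14 ± 0.71), and overlapped. BEL_LTR Plus had 22.9 and 33.2 in XYYcongo, 16.4 and 11.7 in XYYohio, and 21 and 43.1 in XY (0.94 ± 0.66), whereas DIVER2_LTR Minus of the same group had 10.6 and 8.51 in XYYcongo, 18.1 and 10.1 in XYYohio, and 5 and 6.45 in XY (−0.47 ± 0.70). COPIA_DM_LTR Minus stood at 0.83 ± 0.70 and Copia1-LTR_DM Minus at −0.54 ± 0.65, without overlap in either. All of these had an adjusted p of 0.995 from limma.

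LINE elements, which copy themselves through an RNA intermediate without terminal repeats, had 2 of 36 entries (5.56%) higher and 2 (5.56%) lower without overlap, against 13.8% and 7.77% of all features. Jockey Minus had the largest difference among them, with 13.9 and 16.2 in XYYcongo, 54.3 and 24.0 in XYYohio, and 8 and 10.9 in XY. XYYohio gave the high pair here, and the log2 fold change was −1.22 ± 0.67 (unadjusted p = 0.0692, adjusted p = 0.995 from limma). G_DM Plus lay at the other end of the group, with 66.2 and 98.7 in XYYcongo, 74.8 and 36.3 in XYYohio, and 55 and 125.4 in XY (0.62 ± 0.66). Among the other DNA transposons with terminal inverted repeats, 3 of 11 entries (27.3%, against 13.8% of all features) stood higher without overlap and 0 lower, and over the 7 scalings 0 to 3 stood higher and 0 to 5 lower. POGO Plus had 50.7 and 79.1 in XYYcongo, 46.0 and 31.5 in XYYohio, and 47 and 79.0 in XY (0.72 ± 0.66). S_DM Minus had 18.8 and 41.7 in XYYcongo, 59.2 and 33.6 in XYYohio, and 39 and 64.5 in XY (−0.65 ± 0.65). DNAREP1_DM Plus, the INE-1 repeat, had 14.7 and 11.9 in XYYcongo, 5.75 and 6.93 in XYYohio, and 11 and 17.3 in XY (0.96 ± 0.69).

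Telomeres of *Drosophila* are kept up by the retrotransposons HeT-A, TAHRE and TART, and among their 8 entries 1 stood higher and 1 lower in XYYcongo, both from TAHRE (12.5% each, against 13.8% and 7.77% of all features). Over the 7 scalings 0 to 1 stood higher and 0 to 5 lower. TAHRE Minus had 29.4 and 28.9 in XYYcongo, 10.7 and 12.3 in XYYohio, and 8 and 27.4 in XY (1.28 ± 0.67, adjusted p = 0.995 from limma). TAHRE Plus had 8.17 and 11.1 in XYYcongo, 13.2 and 13.3 in XYYohio, and 4 and 12.1 in XY (−0.44 ± 0.70). HETA Plus had 32.7 and 43.4 in XYYcongo, 47.7 and 20.8 in XYYohio, and 18 and 35.5 in XY. TART Minus was the most abundant of these entries, with 416.8 and 556.6 in XYYcongo, 520.4 and 324.1 in XYYohio, and 220 and 419.3 in XY. The HETA, TART and TART_B1 entries overlapped between XYYcongo and XYYohio on both strands.

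The rRNA genes lie on the X and on the Y, and the retrotransposons R1 and R2 insert into them. 45S_rDNA Plus stood at 345300 and 208900 in XYYcongo, 277400 and 410400 in XYYohio, and 392600 and 204500 in XY. 45S_rDNA Minus had 306.5 and 488.5 in XYYcongo, 753 and 378 in XYYohio, and 268 and 392.3 in XY (−0.46 ± 0.68). R1_DM Minus had 1227 and 1520 in XYYcongo, 1386 and 770.9 in XYYohio, and 907 and 1463 in XY (0.40 ± 0.67). These 3 entries overlapped, as did R1_DM Plus and both strands of R2_DM. 5S_DM Minus, from the 5S rRNA genes, stood higher in XYYcongo without overlap, with 60.5 and 97.9 in XYYcongo, 59.2 and 35.7 in XYYohio, and 71 and 67.3 in XY (0.73 ± 0.66, adjusted p = 0.995 from limma).

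Among tRNA fragments 0 of 242 tested entries passed the test, and log2 fold changes of both signs occurred. Over the 74 distinct tRNA profiles, 15 (20.3%) stood higher in XYYcongo without overlap and 13 (17.6%) lower, against 14.6% and 5.61% of all 446 profiles. Over the 7 scalings 0 to 18 profiles stood higher and 0 to 25 lower. Fragments of glutamine tRNAs had a lower mean log2 level in XYYcongo in every tested profile. Gln-CTG-2-1, which shares its values with 4 other gene copies, had 163.5 and 225.5 in XYYcongo, 276.2 and 469.2 in XYYohio, and 196 and 285.9 in XY. Gln-CTG-4-1 had 53.9 and 96.2 in XYYcongo, 151.3 and 139.7 in XYYohio, and 95 and 68.5 in XY (−1.002 ± 0.67, adjusted p = 0.995 from limma). All 12 glutamine entries (6 profiles) had a negative log2 fold change as deposited. Of these, 11 (91.7%) stood lower without overlap, against 7.77% of all features, or 5 of the 6 profiles (83.3%) against 5.61%. Over the 7 scalings 0 to 6 glutamine profiles stood lower without overlap. The median over the profiles was −0.77, which ran from −1.11 to −0.74 over the 7 scalings. In Gln-CTG-2-1 and Gln-CTG-4-1 the XYYohio libraries were the high pair, except that XY library 2 passed XYYohio library 1 in Gln-CTG-2-1.

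Leucine tRNAs with the anticodons CAA and CAG, and phenylalanine tRNAs, also stood lower in XYYcongo as deposited. As deposited, 4 of 4 CAA profiles, 1 of 1 CAG profile and 1 of 1 phenylalanine profile stood lower without overlap, against 5.61% of all profiles. Profiles of the leucine anticodons AAG, TAA and TAG all overlapped, and the TAA median was 0.069. Over the 7 scalings 0 to 4 CAA profiles stood lower without overlap, and 0 to 1 each for CAG and phenylalanine. Leu-CAG-1-1 had 15.5 and 17.9 in XYYcongo, 38.6 and 19.7 in XYYohio, and 17 and 32.3 in XY. Phe-GAA-1-4 had 5.72 and 4.26 in XYYcongo, 8.22 and 8.53 in XYYohio, and 9 and 10.1 in XY. On the other side, all 20 glycine, 17 proline, 12 arginine, 10 tyrosine and 18 serine entries tested had a positive log2 fold change as deposited, as had 69.6% of all features. Most are identical copies, with 4 distinct glycine, 5 proline, 4 arginine, 7 tyrosine and 6 serine profiles. Gly-GCC-1-1 had 1460 and 3477 in XYYcongo, 1444 and 1537 in XYYohio, and 1078 and 2035 in XY. Pro-TGG-1-1 had 3173 and 3149 in XYYcongo, 3159 and 1781 in XYYohio, and 3302 and 2649 in XY. The proline median over profiles was 0.63 as deposited and 0.285 at its lowest over the 7 scalings, and the serine median was 0.386 as deposited and 0.045 at its lowest.

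A share within the tRNA class does not depend on the scaling of a library. With each distinct profile counted once, glutamine made up 3.89% and 3.71% of tRNA values in XYYcongo, 5.39% and 9.38% in XYYohio, and 6.01% and 4.62% in XY. Leucine made up 0.963% and 0.689% in XYYcongo, 1.40% and 1.21% in XYYohio, and 1.33% and 1.25% in XY. For both amino acids XYYcongo gave the 2 lowest libraries of the 6. Such separation was common: lysine, methionine, phenylalanine and threonine shares were also lower in XYYcongo than in XYYohio without overlap. Those of aspartate, glycine, initiator methionine, proline, tryptophan and tyrosine were higher without overlap, and the other tRNAs overlapped. All methionine and threonine entries lay below the minimum mean and were not tested. Methionine made up only 0.0111% and 0% in XYYcongo and 0.0170% and 0.0267% in XYYohio. These shares were not tested, and an exact test of 2 libraries against 2 could not go below a two-sided p of 0.333. Glycine held 20.6% and 29.7% in XYYcongo, 15.1% and 19.4% in XYYohio, and 17.5% and 21.6% in XY, and proline held 31.5% and 27.3% in XYYcongo, 21.8% and 22.4% in XYYohio, and 30.4% and 19.7% in XY. Glutamate tRNAs differed widely between the 2 XYYohio libraries, with 10.2% and 9.40% in XYYcongo, 24.4% and 4.22% in XYYohio, and 7.94% and 8.39% in XY. The tRNA genes named here, other than Gln-CTG-4-1, were picked after their values were seen.

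**Figure D4:**
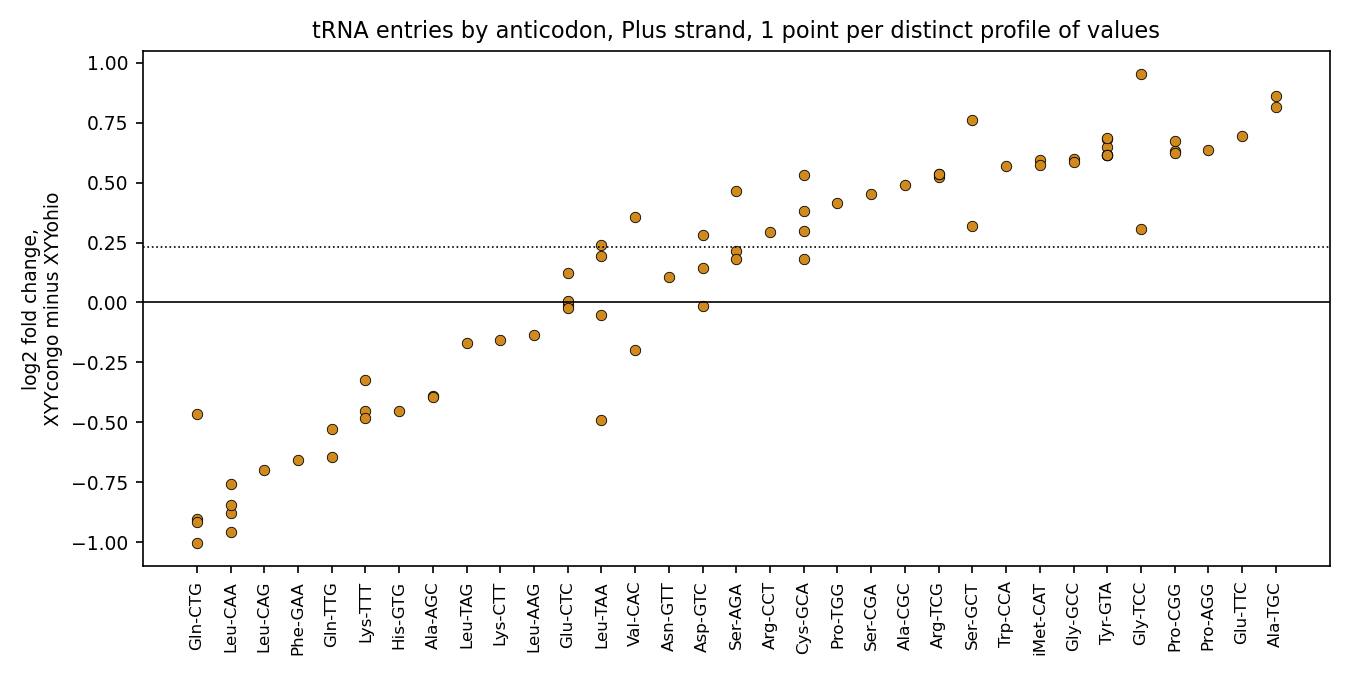
Log2 fold change of XYYcongo minus XYYohio for Plus-strand tRNA entries, 1 point per distinct profile of values, grouped by anticodon and ordered by the median (horizontal). The solid line is 0 and the dotted line is the median of all 618 tested features, 0.23. Gln, Leu-CAA, Leu-CAG, Leu-AAG, Leu-TAG, Phe, Lys, His and Ala-AGC lie below both lines, and Gly, Pro, Tyr, iMet, Trp and Ala-TGC are among those above 0.

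snoRNAs guide the chemical modification of rRNA, and 11 of 115 tested entries (9.57%) stood higher in XYYcongo without overlap while 0 stood lower, against 13.8% and 7.77% of all features. Over the 7 scalings these counts ran from 1 to 17 profiles higher and from 0 to 13 lower. The median log2 fold change of the class was 0.22, near the 0.23 of all features, and it was −0.07 with TMM. snoRNA:Psi28S-2566, a guide named for a pseudouridine of 28S rRNA, had 14.7 and 5.11 in XYYcongo, 3.29 and 3.20 in XYYohio, and 17 and 5.24 in XY (1.21 ± 0.73). snoRNA:U31:54Eb had 19.6 and 15.3 in XYYcongo, 8.22 and 6.40 in XYYohio, and 1 and 10.9 in XY (1.15 ± 0.71). snoRNA:Me28S-G3277a had 12.3 and 11.9 in XYYcongo, 5.75 and 4.80 in XYYohio, and 5 and 6.05 in XY (1.06 ± 0.72). Each of these differences was carried by at most 24 reads in a library, and each had an adjusted p of 0.995 from limma. snoRNA:Psi18S-996 had 4.90 and 0.851 in XYYcongo, 16.4 and 2.13 in XYYohio, and 7 and 6.85 in XY.

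Mitochondrial transcripts gave 5 of 11 tested entries (45.5%) higher in XYYcongo without overlap and 1 (9.09%) lower as deposited, against 13.8% and 7.77% of all features. Over the 7 scalings these counts ran from 0 to 5 higher and from 0 to 2 lower. mt:ATPase8, a subunit of the mitochondrial ATP synthase, had 93.2 and 28.1 in XYYcongo, 16.4 and 17.1 in XYYohio, and 15 and 27.8 in XY. Its log2 fold change was 1.56 ± 0.66 (unadjusted p = 0.0178, adjusted p = 0.995 from limma), and XYYcongo library 1 was the high one: the difference was 2.43 for library 1 and 0.69 for library 2. mt:CoI, a subunit of cytochrome c oxidase and the most abundant of the class, had 245.2 and 268.1 in XYYcongo, 218.7 and 168.5 in XYYohio, and 239 and 306.4 in XY. mt:ND2 was the entry that stood lower, with 5.72 and 3.40 in XYYcongo, 7.40 and 6.93 in XYYohio, and 3 and 4.84 in XY. mt:CoI and mt:ND2 were picked after their values were seen.

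The ratio of the Minus to the Plus strand of an element within a library does not depend on the scaling of that library, apart from the 1 added to each value. Of 119 elements with both strands above the minimum, limma called 0 (0%), with 10 (8.4%) at an unadjusted p under 0.05. XYYcongo stood higher in 27 (22.7%) and lower in 19 (16%) without overlap. TAHRE had the smallest p: the Minus strand held 78.3% and 72.3% of its values in XYYcongo, 44.8% and 47.9% in XYYohio, and 66.7% and 69.4% in XY. Its log2 ratio of the strands was higher by 1.71 ± 0.27 in XYYcongo (adjusted p = 0.059 from limma), and with the library number as a replicate block it passed, at an adjusted p of 0.0473, as it did with no filter on low values, at 0.0248. The XYYohio libraries were the ones apart, and these shares rest on 46 and 47 reads in XYYcongo and 29 and 48 reads in XYYohio.

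The Minus share of DM297_LTR was 96.4% and 98.1% in XYYcongo, 83.9% and 84.8% in XYYohio, and 89.6% and 81.2% in XY. Its log2 ratio was higher by 1.99 ± 0.36 in XYYcongo (adjusted p = 0.0667 from limma, 0.0548 with the replicate block and 0.0307 with no filter on low values). A telomeric entry whose values nearly equal those of TAHRE gave 1.74 ± 0.36 (adjusted p = 0.0906) and is not independent of it. STALKER2_LTR, with a Minus share of 62.1% and 91.3% in XYYcongo, 31.3% and 45% in XYYohio, and 10.0% and 49.3% in XY, was the other element that passed with the replicate block (2.38, adjusted p = 0.0473 from limma, against 0.471 without it). Its shares rest on few reads: the Plus strand had 11 and 2 in XYYcongo and 22 and 11 in XYYohio. The Minus strand had 18 and 21 reads in XYYcongo and 10 and 9 in XYYohio. Jockey stood in the other direction, with 53.1% and 45.2% in XYYcongo, 78.6% and 61.6% in XYYohio, and 57.1% and 50.9% in XY (−1.27 ± 0.42, adjusted p = 0.471). Over all TE entries together the Minus strand held 43.3% and 41.6% in XYYcongo, 43.2% and 41.3% in XYYohio.

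The ovary table of the series holds the same pair of added Y chromosomes in females. It was normalized separately, so its contrast of XXYcongo minus XXYohio was fitted in its own table and no test was made between tissues. In ovary limma called 388 of 791 features (49.1%), 355 higher (44.9%) and 33 lower (4.17%) in XXYcongo, or 170 higher and 152 lower with TMM. Both XXYcongo libraries stood above both XXYohio libraries in 448 features (56.6%) and below both in 137 (17.3%). The median standard error was 0.331 in ovary, against 0.669 in testis, and the median absolute log2 difference between libraries of a genotype was 0.337 in XXYcongo and 0.309 in XXYohio ovary. Of 227 TE entries tested in testis and also in ovary, 189 (83.3%) were called higher in XXYcongo ovary as deposited. This stands against 50.3% of the 591 features tested in both tissues. The median log2 fold change of the TE entries was 1.07 in ovary, against 0.872 over those 591 features, and 0.26 in testis. Suste Minus stood at 0.40 ± 0.57 in testis and 0.80 in ovary (adjusted p = 0.0202 from limma). Over the 430 profiles tested in both tissues the median was 0.26 in testis and 0.872 in ovary, so Suste Minus lay below the ovary median.

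For some tRNA fragments the values of the tissues lay far apart. The median log2 fold change of the proline entries was 7.17 in ovary and 0.63 in testis, and that of the glycine entries was 3.50 in ovary and 0.60 in testis. Glutamine entries stood at 1.82 in ovary and −0.90 in testis. Others lay close, with glutamate TTC at 0.63 in ovary and 0.69 in testis and asparagine at −0.09 in ovary and 0.10 in testis. Over the 430 profiles tested in both tissues, the log2 fold changes had Pearson's r = 0.099 and Spearman's rho = 0.092, as a description across features, which are not independent replicates. Of the 230 profiles called higher in XXYcongo ovary, 180 had a positive value in testis (median 0.28), and of the 26 called lower, 22 did (median 0.31). These shares of 78.3% and 84.6% stand beside 75.1% positive (median 0.26) over all 430 profiles.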

How the data were processed

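Small RNAs of testes were sequenced from 6 libraries, 2 per genotype, which the labels call biological replicates. Per the labels' protocols, RNA was extracted with Trizol, libraries were made with 15 cycles of PCR, and the pool was read as single ends over 50 cycles. Trim Galore and Bowtie 1.1.1 were used, per the submitters' processing notes. No genome build, rule for multiply mapped reads or origin of the scale factors was stated in the labels or headers. The authors deposited whole read counts for XY library 1. For the other 5 testis libraries the authors deposited a normalized signal, and 100% of these values were whole reads times 1 factor per library within 0.01 of a read. The authors also deposited a p-value per feature, which was not used. Symbols of all 524 FlyBase entries came from the BDGP6.54 annotation, and coordinates and sequences were not used here.

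limma 3.58.1 in R 4.3.3 was run with eBayes and a trend on log2(value + 1). The 3 testis genotypes shared 1 model with 3 residual degrees of freedom, and the prior degrees of freedom were infinite, so that each error came from the trend alone. Spike-ins and features with a mean under 5 over the 6 libraries were left out. Tests were two-sided with Benjamini-Hochberg adjustment over all tested features, and ± is a standard error unless given as SD. edgeR 4.0.16 and DESeq2 1.42.0 were run on the recovered reads as alternatives. The steps were tested on simulated data.

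Same-numbered libraries deviated from their genotype means together (correlation 0.396 between XYYcongo and XYYohio, 0.353 between XYYcongo and XY, 0.414 between XYYohio and XY). The numbers were therefore taken to pair the libraries in the alternatives with a replicate block. The main tests did not use this pairing. The labels give only the number.

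Named features were the 20 of smallest unadjusted p, both strands of Suste, satellite, telomere, rDNA, DMHMR1, hoppel and INE-1 elements, and the largest rise and fall of each list. Members and lists were chosen with earlier results of these data known. After entry names were seen, HETRP_DM was taken out of the LINE list and LTRMDG3 was put into the mdg list. The grouping of tRNAs by amino acid was chosen after the data were seen. NTS_DM did not reach the minimum, and 264 tRNA entries were identical in every library to at least 1 other entry.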

Additional observations from a re-analysis of the deposited data

Results flagged for a closer look

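The 36 named features beyond the 0.364 between scaling medians were searched for opposite directions in the tissues. In 6 of them both XYYcongo testis libraries lay on one side of both XYYohio testis libraries, while both XXYcongo ovary libraries lay on the other side of both XXYohio ovary libraries. The share of all features with this pattern was not counted. Part of the named features was picked by p or by size of change in the testis data, so their testis direction was selected. The difference between tissues was not tested, since the tables were normalized separately. Over all features, 13.8% stood higher and 7.77% lower without overlap in testis, and 56.6% higher and 17.3% lower in ovary. The median log2 fold change in ovary was 0.872 over features tested in both tissues, so a positive value there was common. DM297_LTR Plus stood at −2.63 in testis and 0.77 in ovary (log2 fold change of the Ycongo over the Yohio genotype). Jockey Minus stood at −1.22 in testis and 1.16 in ovary, and tRNA:Gln-CTG-4-1 Plus at −1.002 in testis and 1.84 in ovary. Copia1-LTR_DM Minus stood at −0.54 in testis and 0.86 in ovary, and TAHRE Plus at −0.44 in testis and 1.25 in ovary. snoRNA:Psi28S-2566 Plus went the other way, with 1.21 in testis and −0.73 in ovary.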

How the results depend on the processing

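The count of features called stayed at 0 in 23 of 24 alternatives, which included 7 scalings in all, other pseudocounts and filters, edgeR, DESeq2 and a replicate block on the library number (0 called, 8 at an unadjusted p under 0.05, smallest adjusted p 0.224 from limma). The exception left out XYYohio library 2, which left 1 library in that genotype, and the features were satellite AAGAC Minus and satellite AAGAGAG Minus. The strand ratio count was 0 in 10 of 14 alternatives. It was 17 with no filter on low values, of which 13 were copies of 1 lysine tRNA (1.56, adjusted p = 0.0248) and the others GYPSY_I (2.61, adjusted p = 0.0248), TAHRE (adjusted p = 0.0248), DM297_LTR (adjusted p = 0.0307) and the telomeric entry nearly equal to TAHRE (adjusted p = 0.0457), 2 with the replicate block, and 0 to 3 with 1 library left out. The 3 without XYYcongo library 2 were TAHRE, the telomeric entry that nearly equals it and ACCORD_I, and the 1 without XYYohio library 2 was satellite AAGAC. The count in ovary lay between 275 and 401 with 1 library left out. The difference of the tRNA share was 2.001 percentage points, and −3.68 without rDNA in the total.

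Of 56 named features, 36 lay beyond the 0.364 between scaling medians, and 27 of these kept their sign in every alternative, while the dodeca satellite Minus went to 0 in at least 1 of them. The other 20 ran from −0.33 to 0.35, and 1 of them kept its sign throughout. Some alternatives cannot move a limma log2 fold change, so the sign was fixed there in advance. These are the filters, the settings of limma's errors, the replicate block, distinct profiles, the XYYcongo and XYYohio libraries alone, and leaving out an XY library. Part of the named features was also picked by p or by size of change in these same data. Log2 fold changes turned with edgeR and DESeq2 for satellite AAGAC Minus (−0.79 and −0.70) and satellite AAGAGAG Minus (−0.16 and −0.0731), and the cause was not tested. With 1 library left out, the range was −1.18 to 5.26 for AAGAC Minus, −0.48 to 3.13 for AAGAGAG Minus and −0.41 to 1.21 for AAGAG Minus. It was −0.96 to 0.0337 for 45S_rDNA Minus, −0.0214 to 0.82 for R1_DM Minus, −0.02 to 0.81 for Suste Minus, −2.40 to 0.0776 for snoRNA:Psi18S-996 and −2.29 to 0.16 for tRNA:Ala-AGC-1-1 Minus. A lone library was assumed to vary like the other genotypes. The 95% interval of a median feature reached 2.48-fold as deposited, 2.03-fold with TMM and 26.9-fold with spike-in totals.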
